A study of Mus musculus with 6 samples.

Results

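The bitter taste receptors (Tas2r genes) were described in isolated taste cells of the mouse tongue at 2 ages. They were taken as every gene of the deposited expression table whose symbol starts with Tas2r, which gave 35 of 23361 genes. Taste cells were drawn from the circumvallate (CV) and foliate (Fol) papillae of C57BL/6 mice, and the labels name no genetic change or drug in either age group. The 2-month group held 3 libraries, each made from the pooled cells of 4 mice, and the 6-month group held 3 libraries of 3 mice each. The labels of the samples name 2 and 6 months, whereas the design text of the series gives the younger age as 3 months in one place. The table holds 1 FPKM value per gene and age, the authors' value over the 3 libraries (fragments assigned to a gene, divided by the length of its transcript and by the number of mapped reads, so that levels of different genes are compared per length). There is therefore no replicate error for any receptor here, no difference between the ages was tested, and sequencing depth is unknown.

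Bitter receptors are G protein-coupled receptors of the type II taste cells. Binding of a bitter compound acts through the G protein gustducin (Gnat3 with Gnb3 and Gng13) on the phospholipase Plcb2, and calcium released through Itpr3 opens the channel Trpm5. The cell then releases ATP through a Calhm channel to excite the gustatory nerve. Each receptor is coded by a gene without introns in the coding part, most of the genes lie in clusters, and single receptors differ widely in how many bitter compounds they recognise.

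All 35 receptor genes had values above 0 FPKM at both ages, as did 17757 of all 23361 genes in the table. A mean over both ages of at least 1 FPKM was reached by 30 of the receptors (85.7%), against 54.2% of all genes. The vomeronasal type 1 receptors, a related family of receptors that taste cells are not known for, were set beside them. Of 199 Vmn1r genes, 183 were listed at 0 at both ages and 2 had an average of 1 FPKM or more. The highest of these, Vmn1r58, had a mean of 12.9 FPKM, below Tas2r118 (16.9 FPKM) but above every other bitter receptor. At 2 months, the bitter receptors ranged from 0.202 to 18.4 FPKM with a median of 2.61 FPKM. At 6 months, the range was 0.133 to 15.4 FPKM and the median 2.18 FPKM. By the mean of both ages, Tas2r118 was above 78.7% of all genes of the table, and the other 34 receptors were above 35.0% to 61.7% of them.

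Tas2r118, the mouse counterpart of the human salicin receptor TAS2R16, ranked first at both ages. It had 18.4 and 15.4 FPKM (2 and 6 months), or 15.2% and 14.7% of the summed FPKM of all bitter receptors. It was 3.24 times as high as the next receptor at 2 months and 2.70 times as high at 6 months. The gene is a single exon on the minus strand of chromosome 6 of GRCm38 (chr6:23969161-23970060), and it lies apart from the receptor clusters. The nearest other protein-coding gene, Slc13a1, was 118223 bases away and had 0.0199 FPKM in the younger and 0.0148 FPKM in the older cells. None of the 50-base windows of its coding sequence occurred in another gene's annotated transcript.

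The sequence ahead of this gene is shown because it belongs to the highest receptor and holds a motif that several receptors share. The stretch is GRCm38.p6 chr6:23970011-23970310 on the minus strand, from RefSeq, with 250 bases before the start of the gene model and 50 after. The capitals mark an octamer motif, the 8 letters ATGCAAAT or their reverse complement, which is the classical recognition motif of POU-domain factors such as Pou2f3, the factor that type II taste cells need to form.

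Tas2r118: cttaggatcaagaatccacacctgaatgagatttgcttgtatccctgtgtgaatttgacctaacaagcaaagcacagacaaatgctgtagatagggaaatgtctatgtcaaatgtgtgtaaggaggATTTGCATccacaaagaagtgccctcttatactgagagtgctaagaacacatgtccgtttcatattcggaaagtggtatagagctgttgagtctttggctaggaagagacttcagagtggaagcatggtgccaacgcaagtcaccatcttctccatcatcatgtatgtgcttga

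RefSeq windows of this kind were found for 31 of the 35 receptors, not for Tas2r116, Tas2r117, Tas2r121 and Tas2r136. In 29 of the 31 the gene model starts at the ATG, so that the first 250 bases lie before the start codon and need not hold the site where transcription begins. The octamer, searched on both strands, was in 7 of the 31 windows (22.6%). It was in 1.74% of all 32851 windows of the same length, in 1.94% of the 206 windows of Vmn1r genes and in 2.64% of the 948 windows of olfactory receptor genes. The median GC content was 37.0% in the bitter receptor windows, 36.0% in those of Vmn1r genes, 35.0% in those of olfactory receptor genes and 52.7% in all windows. Stretches around the other 6 octamers are shown from 5′ to 3′ on the strand of each gene, with up to 20 bases on either side and the octamer in capitals. They lie on chromosome 6 of GRCm38.p6 at chr6:131660358-131660399 (minus strand), chr6:40493426-40493473, chr6:42434321-42434368, chr6:42405366-42405413, chr6:40491026-40491073 and chr6:42215151-42215198 (plus strand), in the order given.

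Tas2r107: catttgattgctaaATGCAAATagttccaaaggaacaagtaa
Tas2r108: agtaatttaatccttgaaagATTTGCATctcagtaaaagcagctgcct
Tas2r126: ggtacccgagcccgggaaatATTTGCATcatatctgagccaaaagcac
Tas2r135: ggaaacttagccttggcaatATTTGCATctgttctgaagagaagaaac
Tas2r137: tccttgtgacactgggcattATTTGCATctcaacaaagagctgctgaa
Tas2r144: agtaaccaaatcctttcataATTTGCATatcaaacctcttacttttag

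Apart from Tas2r107, where the octamer began 236 bases before the start of the model, all of these began between 124 and 194 bases before it and had the orientation ATTTGCAT on the strand of the gene. The 7 receptors with the octamer had mean levels from 0.974 FPKM (Tas2r144) to 16.9 FPKM (Tas2r118), with a median of 4.59 FPKM. The 24 receptors whose window lacked it ranged from 0.167 to 5.62 FPKM, with a median of 2.24 FPKM. The ranges of these groups overlapped, and the difference of the medians is a description that was not tested. Apart from Tas2r107, the receptors with the octamer lie outside the largest receptor clusters described below. Levels by motif were therefore not separated from levels by locus. An AP-1 motif (TGANTCA, both strands, where N is any base), which c-Fos and c-Jun bind, was in the windows of Tas2r113, Tas2r120, Tas2r129 and Tas2r140, or 12.9% against 7.81% of all windows and 18.0% of Vmn1r windows. A TATA motif (TATAAA, both strands) was in 10 windows (32.3%), against 13.6% of all windows and 42.2% of Vmn1r windows. In 0 of the 31 windows did matches of different motifs overlap. A match is a run of letters and shows no binding.

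**Figure D1:**
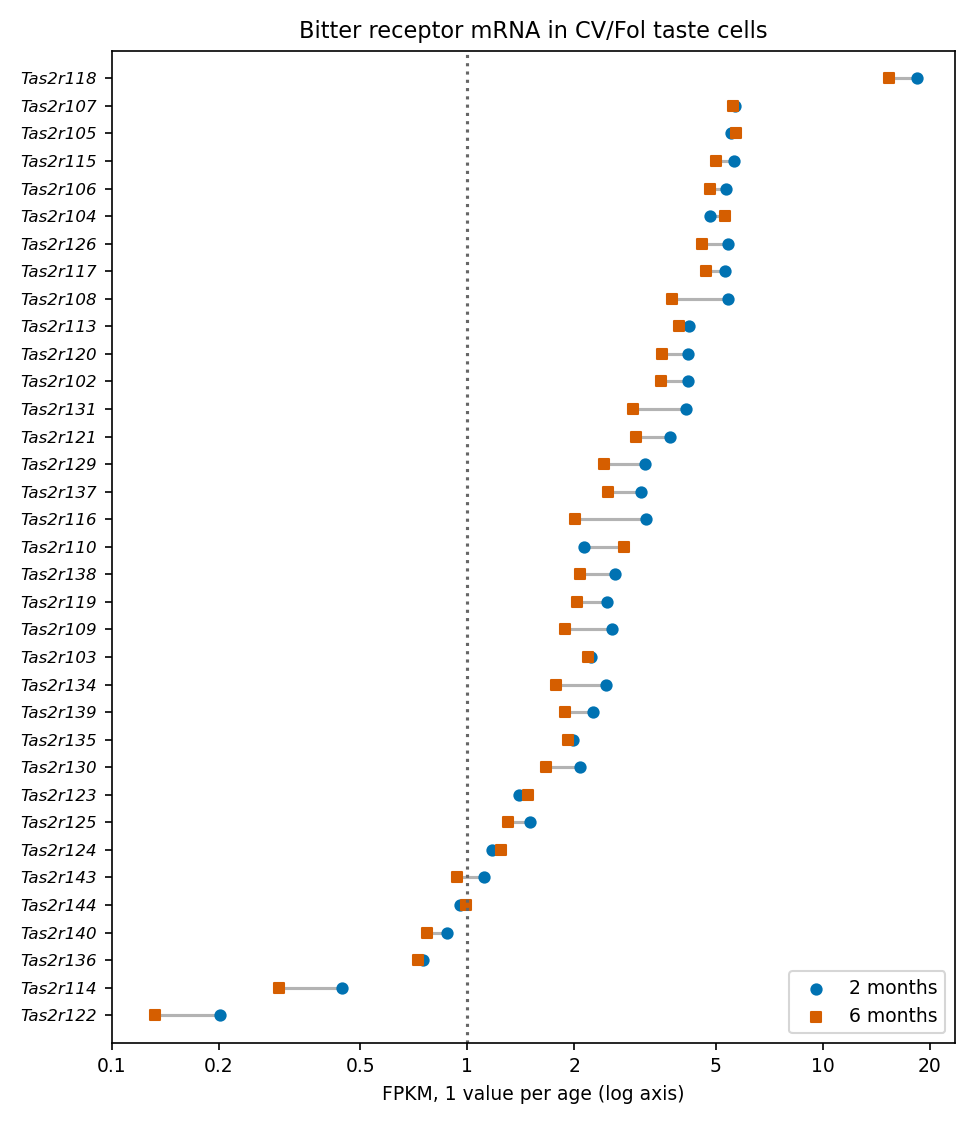
FPKM of each of the 35 bitter receptor genes at 2 months (circles) and 6 months (squares), 1 value per age, on a log axis, ordered by the mean of both ages; the dotted line marks 1 FPKM. Tas2r118 stands apart at 18.4 and 15.4 FPKM, and most squares lie to the left of their circles.

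Below Tas2r118, levels declined gradually. Tas2r107 had 5.68 and 5.61 FPKM (2 and 6 months). Tas2r105, the receptor for cycloheximide, had 5.54 and 5.70 FPKM at these ages, and Tas2r115 had 5.64 and 5.02 FPKM. Without replicate values, neighbours in this order cannot be said to differ.

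Tas2r106 had 5.36 FPKM in the younger and 4.82 FPKM in the older cells, and Tas2r104 had 4.81 and 5.33 FPKM. Tas2r126 followed with 5.43 and 4.57 FPKM, Tas2r117, whose sequence is partly shared with a pseudogene, with 5.31 and 4.69 FPKM, Tas2r108 with 5.41 and 3.77 FPKM and Tas2r113 with 4.21 and 3.94 FPKM. These are, with Tas2r118, the 10 highest receptors by the mean of both ages, and the same 10 genes were the highest 10 at each age taken alone. They held 54.5% of the summed receptor FPKM at 2 months and 56.1% at 6 months. The 5 highest by the mean held 34.2%.

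The 5 receptors with a mean under 1 FPKM were Tas2r144, Tas2r140, Tas2r136, Tas2r114 and Tas2r122. Tas2r144, the counterpart of human TAS2R40, was just under the limit with 0.957 and 0.991 FPKM (2 and 6 months). Tas2r140 had 0.879 and 0.772 FPKM, and Tas2r136 had 0.751 and 0.729 FPKM. Tas2r114 was at 0.446 and 0.296 FPKM, and Tas2r122 was the lowest at 0.202 and 0.133 FPKM. The highest and the lowest receptor thus differed 91.0-fold at 2 months and 116-fold at 6 months, ratios that rest on the low values of Tas2r122.

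The order of the receptors was alike at the 2 ages. Over the 35 receptors, Spearman's rho between the ages was 0.96 and Pearson's r of the untransformed FPKM values was 0.99. The high values of Tas2r118 weigh on Pearson's r, which was not computed without this gene. Both coefficients describe genes that share length and sequence in both measurements. The rank of a receptor moved by a median of 1 place, and 27 of the 35 moved by at most 3 places. The largest move was that of Tas2r110, from rank 24 at 2 months to rank 15 at 6 months. Tas2r116 moved the most in the other direction, from rank 15 to rank 21.

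The receptors were then grouped by locus, joining genes less than 500 kb apart, which gave 7 loci. Of the 35 genes, 33 lie on chromosome 6, Tas2r134 lies on chromosome 2 (chr2:51627511-51628408) and Tas2r119, the counterpart of human TAS2R1, on chromosome 15 (chr15:32177289-32178294). Tas2r134 had 2.46 FPKM in the younger and 1.77 FPKM in the older cells, and Tas2r119 had 2.47 and 2.04 FPKM. In the GRCm38 annotation (GENCODE M21), 0 of the 35 receptors overlapped another gene on either strand, and the nearest protein-coding gene outside the family was 5427 to 296040 bases away.

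The 6 receptors at chr6:131629823-131690063 had the highest levels of the clusters, with a median of 5.08 and 5.07 FPKM (2 and 6 months). This locus held 4 of the 6 highest receptors, Tas2r107, Tas2r105, Tas2r106 and Tas2r104, which are neighbours on the minus strand. It contributed 19.8% of the summed receptor FPKM at 2 months and 22.3% at 6 months. The outer genes of the row were lower, with 2.08 and 1.67 FPKM for Tas2r130 and 0.446 and 0.296 FPKM for Tas2r114. Although Tas2r114 and Tas2r105 had 73.7% of their coding bases in common, Tas2r105 was 12.4 times as high at 2 months and 19.3 times as high at 6 months. These ratios rest on the low values of Tas2r114, so their difference between the ages is uncertain.

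The largest locus, chr6:132656953-133055816, held 18 receptors, of which 15 had an average of 1 FPKM or more. Its median was 2.87 FPKM in the younger and 2.30 FPKM in the older cells. The levels were mixed along the row, from 0.202 FPKM for Tas2r122 to 5.64 FPKM for Tas2r115, its immediate neighbour, at 2 months. Together the 18 genes gave 41.9% of the summed receptor FPKM at 2 months and 41.5% at 6 months.

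Closer to the start of the chromosome, 3 receptors lie at chr6:40491233-40613310. They are Tas2r137 with 3.08 and 2.49 FPKM (2 and 6 months), Tas2r108, a receptor for denatonium, and Tas2r138, the counterpart of the human phenylthiocarbamide receptor TAS2R38, with 2.61 and 2.08 FPKM. A further 5 lie at chr6:42140936-42435464. In this group Tas2r126 was higher than its neighbours, of which Tas2r139, the counterpart of human TAS2R39, had 2.27 and 1.88 FPKM, Tas2r135 had 1.99 and 1.92 FPKM, and Tas2r143 had 1.12 and 0.937 FPKM. Tas2r126, Tas2r135 and Tas2r143 are next to each other and were at different levels.

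**Figure D2:**
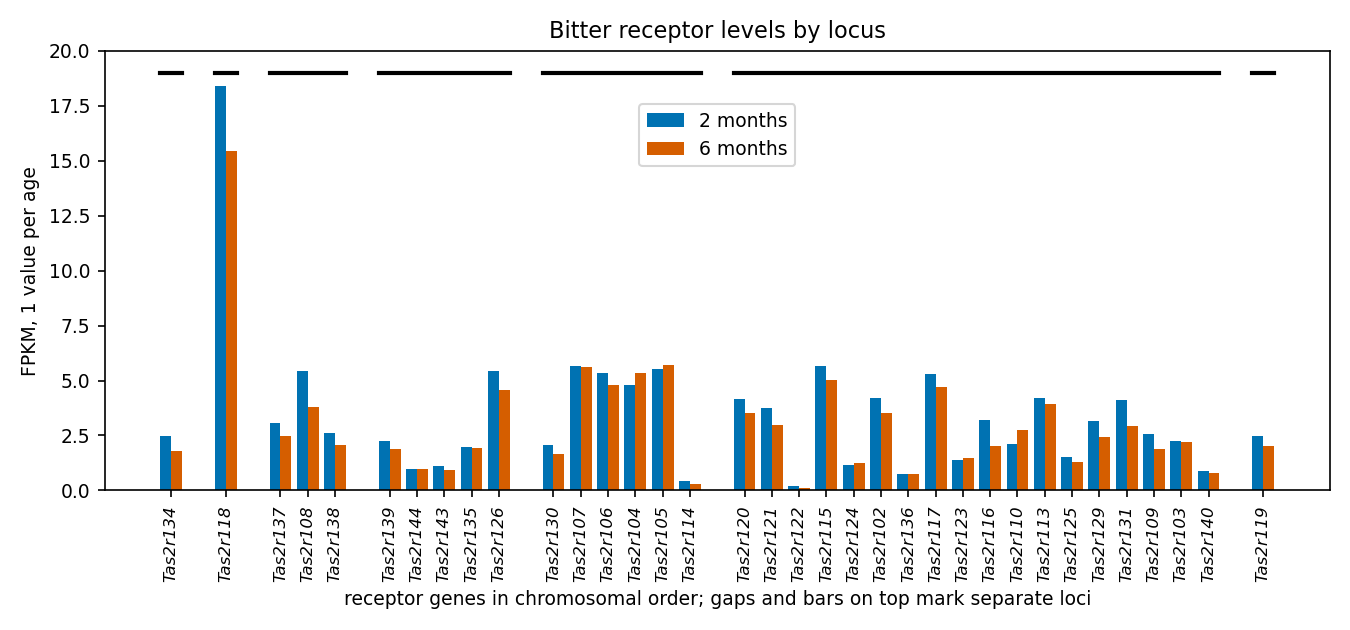
FPKM of each bitter receptor gene at 2 months (blue) and 6 months (orange), 1 value per age without error, in chromosomal order from chromosome 2 through chromosome 6 to chromosome 15; horizontal bars join the genes of each of the 7 loci. Tas2r118 is a locus of its own, and at the locus from Tas2r130 to Tas2r114 the 4 inner genes lie between 4.81 and 5.70 FPKM.

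Most receptors could be told apart by any 50 bases of their coding sequence, a length chosen here, since the read length is not given in the sources used. Over the 595 pairs of receptors, the identity of the aligned coding bases had a median of 60.0% and a highest value of 86.3%, and 3 pairs were above 80%. For 31 of the 35 receptors, none of the 50-base windows of the coding sequence occurred in an annotated transcript of another gene. The exceptions were Tas2r109 (5.99% of windows), Tas2r110 (7.45%), Tas2r123 (7.66%) and Tas2r117 (45.3%), which shares windows with the pseudogene Tas2r111-ps2 and others. The values of these 4 genes are uncertain to that extent, since reads can be divided between copies. The closest pair was Tas2r110 and Tas2r123, at chr6:132868008-132869009 and chr6:132847142-132848143 on the plus strand. The first 120 coding bases of both, from GENCODE transcripts of GRCm38, are shown because these genes were among the few that were higher at 6 months. Capitals mark the 22 positions where they differ.

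Tas2r110: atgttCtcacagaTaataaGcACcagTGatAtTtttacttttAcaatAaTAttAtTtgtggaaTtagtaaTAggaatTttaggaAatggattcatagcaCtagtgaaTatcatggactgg
Tas2r123: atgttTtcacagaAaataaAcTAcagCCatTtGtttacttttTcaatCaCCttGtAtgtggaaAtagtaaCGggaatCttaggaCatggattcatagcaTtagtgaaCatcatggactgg

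Tas2r110 had 2.13 FPKM in the younger and 2.77 FPKM in the older cells, and Tas2r123 had 1.40 and 1.48 FPKM. The other pairs above 80% were not at the same level either. Tas2r117 was 2.07 times as high as Tas2r109 at 2 months and 2.48 times as high at 6 months. Tas2r102, with 4.19 and 3.51 FPKM, was 3.56 and 2.82 times as high as Tas2r124. The coding sequences were 882 to 1044 bases long with a GC content of 34.6% to 48.8%. Across the 35 receptors, Spearman's rho of the mean level was 0.00056 with GC content and -0.30 with coding length. In RefSeq annotation of GRCm38.p6, 33 of the 35 receptor models are as long as the coding sequence, so that the per-kilobase scale of their FPKM values refers to the coding length, if the authors' RefSeq version had the same models.

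Levels at the 2 ages were compared next, by subtracting log2(FPKM + 1) of the younger from that of the older cells, a scale that shrinks the changes of genes with low values. Most bitter receptors had a lower value at 6 months. Of the 30 with an average of 1 FPKM or more, 25 were lower and 5 higher, and the median log2 change was -0.19, with quartiles of -0.24 and -0.04. Over all 12652 genes with such a mean, 53.7% were lower and the median was -0.01, with quartiles of -0.10 and 0.08. Among the 5701 genes between 1 and 10 FPKM, where all of these receptors but Tas2r118 lie, 47.8% were lower and the median was 0.01. With 6-month values scaled to equal upper quartiles, 23 of the 30 receptors and 42.3% of all genes were lower, Tas2r107 and Tas2r103 moving to the higher side. With 6-month values scaled to the type II cell transduction genes, 24 receptors and 45.2% of all genes were lower, only Tas2r107 moving to the higher side. How far the genes of that list, given below, are restricted to type II cells was not tested, so this scaling need not follow the content of such cells. Summed over the 35 receptors, the level was 120.7 and 104.9 FPKM (2 and 6 months), a ratio of 0.869, and the ratio was 0.874 without Tas2r118. The receptors come from the same pools and from the same kind of cell, so they are not independent observations of an age effect. In these bulk samples, fewer cells of a type and less RNA per cell cannot be told apart.

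The differences of single receptors were small. On the same scale, 0 of the 30 receptors differed by 1.5-fold or more in either direction, where 1.05% of all 12652 genes were higher and 1.72% lower by that much. With the plain ratio of FPKM values, 1 receptor, Tas2r116, was past 1.5-fold, against 1.31% of genes higher and 1.85% lower. Background shares of this size amount to fewer than 1 of 30 genes.

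The lowest log2 changes were those of Tas2r116, Tas2r108, Tas2r131, Tas2r134 and Tas2r109. Tas2r116 had 3.20 FPKM in the younger and 2.01 FPKM in the older cells, a log2 change of -0.48 and a ratio of 0.628. Tas2r108 had a log2 change of -0.43, and Tas2r131, with 4.12 and 2.94 FPKM, of -0.38. Tas2r134 had -0.32 and Tas2r109, with 2.56 and 1.89 FPKM, had -0.30. The 5 receptors lie at 3 different loci and include genes from the upper and the lower part of the order.

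The 5 receptors above 1 FPKM with a higher value at 6 months were Tas2r110, Tas2r104, Tas2r123, Tas2r124 and Tas2r105. The log2 change was 0.27 for Tas2r110 and 0.12 for Tas2r104. For Tas2r123, Tas2r124 and Tas2r105 it was 0.05, 0.04 and 0.04, and Tas2r124 had 1.18 and 1.24 FPKM. Tas2r104 and Tas2r105 are neighbours with 74.4% identity, and Tas2r110 and Tas2r123 are the closest pair of the family. Tas2r118 had a log2 change of -0.24.

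The remaining receptors lay between these values. Tas2r129 went from 3.18 to 2.43 FPKM, Tas2r121 from 3.73 to 2.99 FPKM, Tas2r120 from 4.18 to 3.53 FPKM and Tas2r130 from 2.08 to 1.67 FPKM. These differences were -0.29, -0.25, -0.19 and -0.20 on the log2 scale. The 6-month value of Tas2r125 was 0.868 of its 2-month value, Tas2r103 had 2.23 and 2.18 FPKM, and Tas2r107, Tas2r103 and Tas2r135 were all within 0.04 of no change. By locus and without a filter on level, 15 of the 18 receptors of the largest locus, 4 of the 6 at chr6:131629823-131690063, 3 of 3 at chr6:40491233-40613310 and 4 of 5 at chr6:42140936-42435464 had a lower value in the older cells. The median log2 changes of these loci were -0.13, -0.07, -0.23 and -0.13. The change had a Spearman's rho of -0.06 with the mean level and of -0.40 with the GC content of the coding sequence over the 30 receptors, which share libraries and, in part, sequence.

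**Figure D3:**
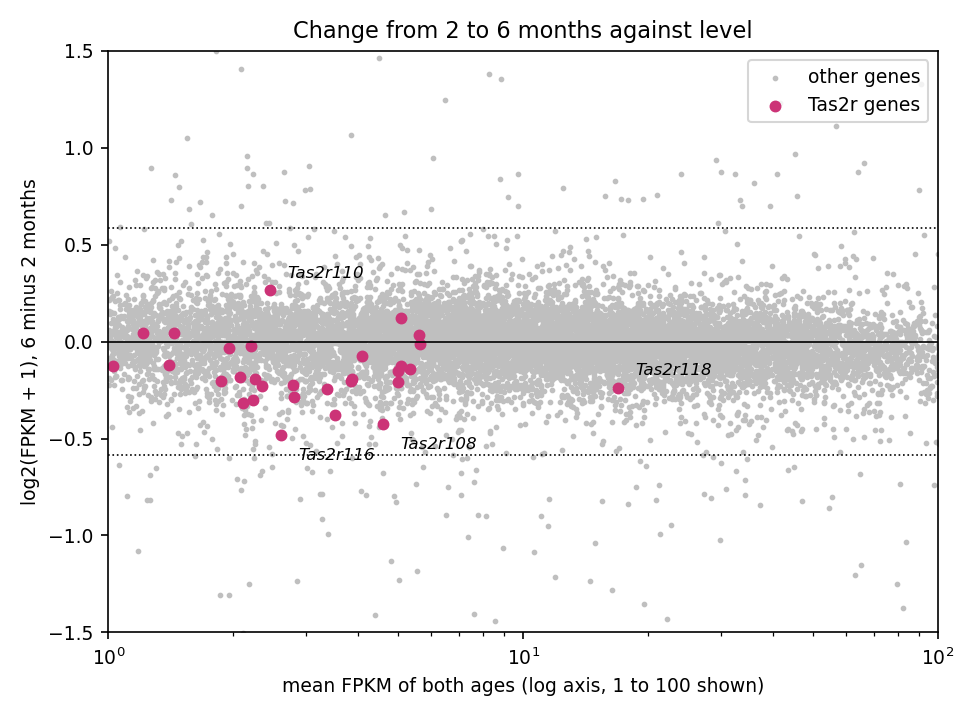
Change in log2(FPKM + 1) from 2 to 6 months against the mean FPKM of both ages (log axis), for the 30 bitter receptors with an average of 1 FPKM or more (pink) and the other genes with such a mean (grey; points outside 1 to 100 FPKM or beyond 1.5 on the vertical axis are not drawn). Dotted lines mark 1.5-fold; 25 of the 30 receptors lie below 0, and 0 lie beyond the dotted lines.

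Transcripts of genes for transduction in type II cells were compared with those of the bitter receptors. Of a list of 18 genes for type II cell transduction and its regulation, 16 were in the table and 15 had an average of 1 FPKM or more. Of these 15, 9 had a lower and 6 a higher value in the older cells, their median change being -0.03 (log2), and 0 reached 1.5-fold. The gustducin subunits Gnat3, Gnb3 and Gng13 had log2 changes of -0.08, -0.14 and -0.24, and all were abundant, at 84.7, 124.4 and 148.5 FPKM in the younger cells against 79.9, 113.0 and 125.9 FPKM in the older cells. Plcb2 had a log2 change of 0.05, Itpr3 of 0.26 and Trpm5 of -0.07, and the transcription factor Pou2f3 had 16.3 and 15.9 FPKM (2 and 6 months). Calhm1 was at 2.39 and 2.77 FPKM, and Calhm3 and Rgs21 were not among the genes of the table under these names. Pde1a was the gene below 1 FPKM. The list also held Gnb1, Trpm4, Panx1, Ric8b, Gnai2, Gnai3 and Gna14. How far its genes are restricted to type II cells was not tested.

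Relative to Gnat3, the summed level of the bitter receptors was 1.42 at 2 months and 1.31 at 6 months. The sweet and umami receptor subunits, which are made in other type II cells, had higher values at 6 months in 3 of 3 cases. Tas1r1 had 2.70 and 2.90 FPKM, Tas1r2 had 9.67 and 11.5 FPKM and Tas1r3 had 10.3 and 14.6 FPKM. The summed level of the 35 bitter receptors was 5.33 times that of the 3 sweet and umami subunits at 2 months and 3.61 times at 6 months. These are single values per age, and the difference between the families was not tested. The study's own quantitative PCR of Tas1r3 showed no change between these ages. Its authors also described taste cell markers as unchanged in their sequencing data.

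**Figure D4:**
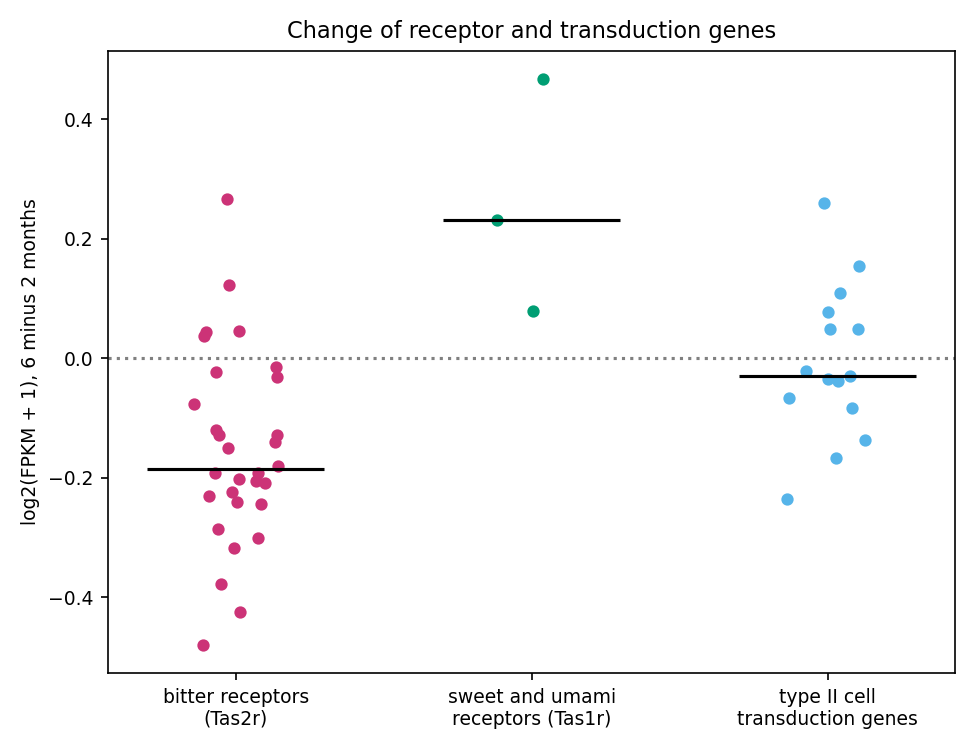
Change in log2(FPKM + 1) from 2 to 6 months for the 30 bitter receptors, the 3 sweet and umami receptor subunits and the 15 transduction genes with an average of 1 FPKM or more; each point is a gene, and the black line is the median of the group. The medians are -0.19, 0.23 and -0.03.

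Markers of the cell types in the preparation were set beside these values. The 7 type II markers summed to 369.2 FPKM in the younger and 349.4 FPKM in the older cells, and 4 of the 7 were lower at 6 months. The sum fell by less than Gng13 alone, which had 148.5 and 125.9 FPKM, while Plcb2, Itpr3 and Calhm1 were higher at 6 months. The 3 type I markers summed to 76.1 and 66.4 FPKM (2 lower), and the 6 type III markers to 45.7 and 48.6 FPKM (1 lower). The keratins of the epithelium around the buds were abundant, with 1287 and 1533 FPKM for Krt14 and 2180 and 1962 FPKM for Krt5. Krt13 was listed at 0 at both ages and Krt4 at 7334 FPKM at 2 months but at 0 at 6 months, which in a file without counts can be a failed estimate. The 4 lingual gland markers summed to 129.1 and 38.5 FPKM and all were lower at 6 months. The 3 skeletal muscle markers summed to 6.90 and 11.8 FPKM and all were higher. The 3 leukocyte markers summed to 295.2 and 256.2 FPKM, with 1 lower. That gene, Lyz2, made up nearly all of the sum, with 293.3 and 253.7 FPKM, while Ptprc and Cd3e were higher at 6 months. What part a shift in cell composition has in the receptor values was not tested.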

How the data were processed

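Per the labels and the study's methods, the authors mapped reads of poly A selected RNA to GRCm38/mm10 with TopHat2 2.0.7, estimated FPKM for RefSeq genes with Cufflinks 2.1.1 and compared the ages with Cuffdiff. The deposited table gives 1 FPKM value per gene and age. Its column of unadjusted p-values, the authors' own comparison, was not used. The column of each age was identified by the group letter in the table, which matches the sample titles. Strandedness of the counting, read length and the library normalization are not given in the sources used here.

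Receptors, gene lists and tests were chosen with earlier results of these data known, and the motifs after the receptor levels had been seen. All 35 Tas2r genes could be named. Those given in full were the 10 highest, the 5 lowest and the 5 largest changes in each direction. A mean of at least 1 FPKM was the filter, and 1 FPKM the pseudocount. Coding sequences (GENCODE M21) were aligned pairwise with Biopython 1.88 (match 1, mismatch -1, gap opening -3, gap extension -1). The code that computes and counts changes was tested on simulated data with known changes, which is a check of the code and not of the receptors. Scripts ran in Python 3.11.15 with pandas 2.3.3, scipy 1.17.1, numpy 2.4.6 and matplotlib 3.10.9.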

Additional observations from a re-analysis of the deposited data

How the results depend on the processing

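The table has no value per library, so leaving out replicates was not run. The ages are separate pools of different mice, so the design holds no pairs to analyse. The number of receptors counted as expressed was 30, and it was 7 with a mean of at least 5 FPKM, 35 with a mean of at least 0.1 FPKM and 29 with at least 1 FPKM in each age. The share of the 5 highest receptors was 34.2%, with 33.7% from 2 months only, 35.4% from 6 months only and 27.9% without Tas2r118. The median log2 change of -0.19 was below 0 under each alternative. It was -0.24 with a pseudocount of 0.1, -0.15 without a filter, -0.13 with a mean of at least 5 FPKM, -0.16 after scaling to equal upper quartiles, -0.16 after scaling to the type II transduction genes, -0.19 without Tas2r117 and -0.18 without Tas2r118. The scalings left 23 and 24 of 30 receptors lower at 6 months and moved the median of all genes from -0.01 to 0.03 and 0.02. The count of receptors past 1.5-fold was 0, and 1 (Tas2r116) with a pseudocount of 0.1 or with none. It was 0 under the other alternatives. The settings without Tas2r117, without Tas2r118 and with no pseudocount were chosen after seeing the data. Without replicate values or depth, no receptor's change can be set against its error.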
